A study of Arabidopsis thaliana with 6 samples.

Results

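The genes described are PORA (AT5G54190), PORB (AT4G27440) and PORC (AT1G03630), which encode the protochlorophyllide oxidoreductases of Arabidopsis thaliana. They were chosen by identifier, and all 3 were found and tested in the authors' deposited table, among 33557 listed and 23937 tested genes. RNA was sequenced from whole 4-day-old seedlings, with light given in the labels as D for 4 days followed by FR, far-red, for 3 h. The first genotype was the fhy1-1 mutant carrying a GFP-FHY1 fusion behind the 35S promoter, a constitutive viral promoter that is active in most tissues, and the second was fhy1-1 without the transgene. Each genotype had 3 libraries, labelled as biological replicates. Both genotypes thus carry the fhy1-1 allele, and neither a wild type nor seedlings without far-red are among the samples. The labels name a single transgenic line, and a second insertion is not analysed here. Restored FHY1 function and an excess of FHY1 cannot be told apart, nor can a response to far-red and a standing difference between the lines.

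Protochlorophyllide oxidoreductase (POR) turns protochlorophyllide into chlorophyllide, a late step of chlorophyll synthesis that in flowering plants needs light. PORA and PORB are the main forms of dark-grown seedlings, where they gather with protochlorophyllide and NADPH in the prolamellar body of the etioplast. PORA transcripts are known to fall in the light through phytochrome action, PORB transcripts persist into green tissue, and PORC is the form known from light-grown leaves. FHY1 carries phytochrome A, the photoreceptor of far-red light, into the nucleus.

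The coding starts of the 3 genes are shown because they bear on how well reads can be given to each gene. They are bases 1 to 60 of each coding sequence in RefSeq TAIR10.1, with the longest run that PORA and PORB share in capitals.
PORA: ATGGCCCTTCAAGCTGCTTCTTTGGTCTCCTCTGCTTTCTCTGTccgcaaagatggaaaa
PORB: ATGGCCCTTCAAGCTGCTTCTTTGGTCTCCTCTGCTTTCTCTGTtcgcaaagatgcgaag
PORC: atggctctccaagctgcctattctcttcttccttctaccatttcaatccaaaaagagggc
That run of 44 coding bases extended to 48 bases with the transcript around it. Over the whole coding sequence, PORA and PORB were identical at 1005 of 1206 aligned bases (83.3%), PORA and PORC at 73.3%, and PORB and PORC at 73.5%. Of all windows of 36 bases in the PORA transcript, 13 were also in PORB, and no window of 50 or 75 bases was. PORC shared no window of 36 bases with either gene. The read length is not given in the sources used here. A read of 50 bases or more without errors could therefore be placed on a single POR gene, and shorter reads could be shared between PORA and PORB over a small part of the transcript.

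The upstream regions of PORA and PORB are shown because these genes changed in the same direction. The windows are the 186 bases before the RefSeq gene start (TAIR10.1), at chr5:21992815-21993000 on the minus strand for PORA and at chr4:13725360-13725545 on the plus strand for PORB. Capitals mark the evening element AAAATATCT, a site known to be bound by MYB-like clock proteins.
PORA: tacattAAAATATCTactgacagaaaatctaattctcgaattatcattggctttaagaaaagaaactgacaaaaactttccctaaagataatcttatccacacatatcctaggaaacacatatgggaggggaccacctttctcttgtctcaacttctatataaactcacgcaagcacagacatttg
PORB: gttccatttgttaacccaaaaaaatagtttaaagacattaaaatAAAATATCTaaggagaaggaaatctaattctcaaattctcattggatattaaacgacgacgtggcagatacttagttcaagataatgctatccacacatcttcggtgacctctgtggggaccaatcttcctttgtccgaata
Searched on both strands, the evening element began at position -180 in PORA and -142 in PORB, counted back from the gene start, and was not in the PORC window. It was in 430 of 23863 windows of the same length before tested genes (1.80%). Of those 430 genes, 10.5% were called higher and 14.9% lower, against 9.92% and 12.9% of all tested genes. None of the 3 windows held the G-box CACGTG, present in 5.87% of windows, or the PBE-box CACATG, in 8.58%. PORB held the core ACGT at -84 (37.1% of windows) and CCAATC at -22 (8.08%), and PORA held the I-box GATAAG at -94 (9.51%) and the TATA box TATAAA at -28 (38.3%). The PORC window overlaps its neighbour AT1G03620 in RefSeq and is not printed. In the authors' table that gene ends 1455 bases before PORC. These matches describe the letters of the windows and show no binding. Bases outside the windows were not searched, so absence of a motif here does not extend to the whole promoter.

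PORA and PORB were lower in the GFP-FHY1 line than in fhy1-1, and PORC was higher. Values are FPKM (fragments mapped per kilobase of transcript, scaled to all mapped fragments), given by the authors as 1 value per genotype with the replicates combined, so no SD between libraries can be given. PORA (chromosome 5, 21990912 to 21992812, TAIR10) stood at 407.3 FPKM in the GFP-FHY1 line and 683.2 FPKM in fhy1-1. This was a 1.68-fold lower level, with a log2 fold change of -0.75 and a 95% interval of -0.78 to -0.71. The interval uses the error obtained by dividing the fold change by the statistic of the authors' deposited table. PORB (chromosome 4, 13725546 to 13727353) stood at 322.0 FPKM in the GFP-FHY1 line and 577.5 FPKM in fhy1-1, 1.79-fold lower (log2 fold change -0.84, interval -0.87 to -0.81). PORC (chromosome 1, 907642 to 909376) stood at 28.5 FPKM in the GFP-FHY1 line and 16.6 FPKM in fhy1-1, 1.72-fold higher (log2 fold change 0.78, interval 0.62 to 0.94).

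**Figure D1:**
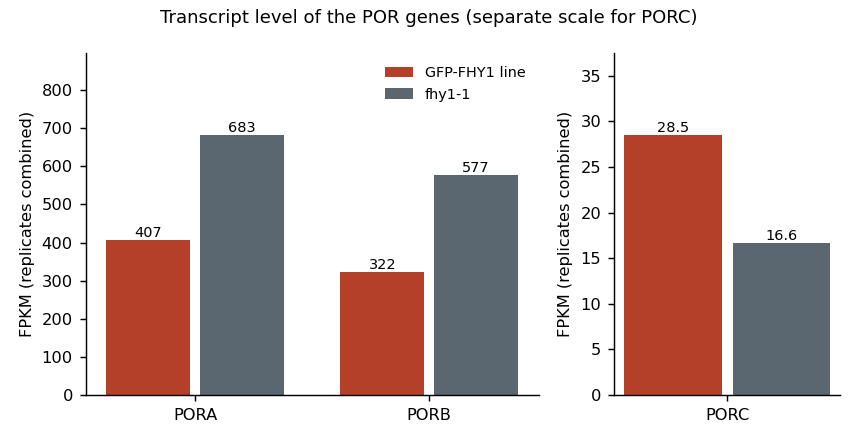
Bars give the FPKM of PORA, PORB and PORC (vertical axes, with a separate scale for PORC) in the GFP-FHY1 line and in fhy1-1, 1 value per genotype with 3 libraries combined and no error bars. PORA and PORB are lower in the GFP-FHY1 line, at 407.3 and 322.0 FPKM, and PORC is higher, at 28.5 FPKM.

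In the authors' deposited table, q was listed as 0 for each of the 3 genes, so PORA and PORB were called lower and PORC higher at a q below 0.05. At that threshold 22.8% of tested genes were called, 12.9% lower and 9.92% higher. None of these changes reached 2-fold, which 2.6% of tested genes did with a call. The calls also rest on the error of that test. With an added replicate spread of 20% and adjustment over the tested genes, PORB was called, whereas PORA and PORC were not. Their single-gene 95% intervals with that spread were -1.21 to -0.28 for PORA, -1.31 to -0.38 for PORB and 0.29 to 1.27 for PORC. With that spread, 0.398% of tested genes were called lower and 2.48% higher. AT2G01021, the gene with the largest FPKM, held 38.0% of the summed FPKM in the GFP-FHY1 line and 28.6% in fhy1-1. Leaving it out was done as an assumed shift computed from these shares, which moved every log2 fold change up by 0.20. The shifted values were -0.54 for PORA, -0.64 for PORB and 0.99 for PORC. That shift takes the FPKM sums of the genotypes as scaled to an equal total. The sums were unequal, 1192843 in the GFP-FHY1 line and 1061019 in fhy1-1, so the deposited values do not meet that condition. Of 8 genes listed as references for scaling, 1 was called higher and 2 lower. Their median log2 fold change as deposited was -0.07 (range -0.30 to 0.24). Genes at 1 FPKM or more in both genotypes had a median of -0.05. Whether so large a shift applies was not tested.

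The opposite change of PORC was larger than the error of each estimate. The log2 fold change of PORC exceeded that of PORA by 1.53 (95% interval 1.36 to 1.69) and that of PORB by 1.62 (1.46 to 1.79). With a replicate spread of 20% added, these intervals were 0.85 to 2.20 and 0.95 to 2.30. PORA and PORB differed far less from each other: the log2 fold change of PORA was above that of PORB by 0.10, with an interval of 0.05 to 0.14 from the implied error and of -0.56 to 0.75 with the 20% spread. All 3 pairs of members were compared in this way.

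The order of the genes by level was PORA, PORB and PORC in both genotypes, and the distance to PORC shrank. PORA was at 1.26 times the level of PORB in the GFP-FHY1 line and 1.18 times in fhy1-1. PORA was at 14.3 times the level of PORC in the GFP-FHY1 line and 41.1 times in fhy1-1, and PORB at 11.3 times and 34.8 times. The FPKM of the 3 genes summed to 757.8 in the GFP-FHY1 line and 1277.3 in fhy1-1, so the summed level was 1.69-fold lower (log2 fold change -0.75, interval -0.78 to -0.73). PORA made up 53.7% of the sum in the GFP-FHY1 line and 53.5% in fhy1-1. PORB made up 42.5% and 45.2%, and PORC 3.77% and 1.30%.

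Among abundant transcripts, falls as large as those of PORA and PORB were few. PORA ranked 219th by FPKM among all listed genes in the GFP-FHY1 line and 99th in fhy1-1, PORB 312th and 125th, and PORC 4484th and 7102nd. Of 1346 tested genes with a mean of at least 100 FPKM, 14 were at or below the log2 fold change of PORA, itself included (1.04%), and 7 at or below that of PORB (0.520%). The median log2 fold change of those 1346 genes was -0.13, and 777 of them were called lower and 284 higher. PORC lay in the class of 10 to 100 FPKM, where 293 of 8671 tested genes (3.38%) were at or above its log2 fold change.

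**Figure D2:**
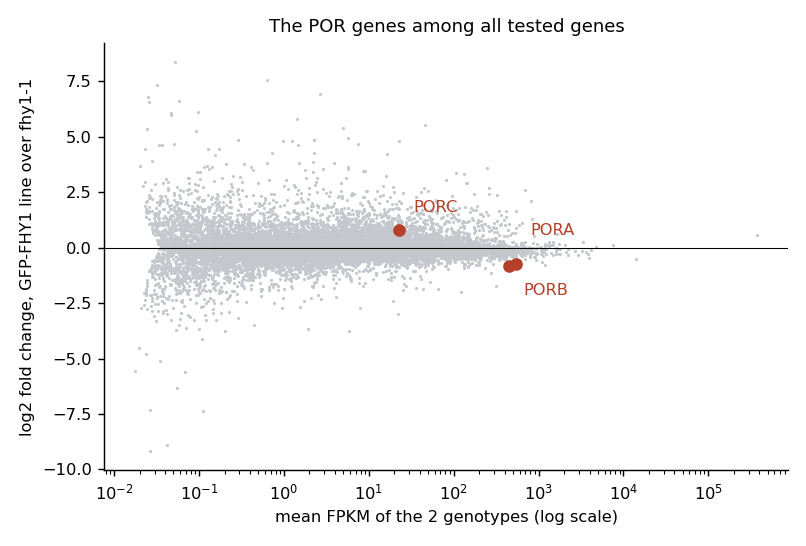
Each grey point is a tested gene with both values above 0, placed by its mean FPKM over the genotypes (horizontal axis, log scale) and its log2 fold change, GFP-FHY1 line over fhy1-1 (vertical axis), with the POR genes in red. PORA and PORB lie at -0.75 and -0.84 at the abundant end, and PORC at 0.78 at a mean of 22.6 FPKM.

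The remaining enzymes of chlorophyll and haem synthesis gave the surroundings of these changes. Of 38 such genes, all tested, 17 were called higher and 4 were called lower in the authors' deposited table. Their median log2 fold change was 0.13, against 9.92% higher, 12.9% lower and a median of -0.05 over all tested genes. These enzymes were listed with earlier results of these data known. Of the 24 genes from HEMA1 to DVR, which lead to protochlorophyllide, 13 were called higher, 2 lower and 9 were not called (median log2 fold change 0.19). HEMA1, glutamyl-tRNA reductase, which opens the pathway, stood at 64.0 FPKM in the GFP-FHY1 line and 19.8 FPKM in fhy1-1, 3.24-fold higher. CHLH, the large subunit of magnesium chelatase, stood at 214.9 FPKM in the GFP-FHY1 line and 59.8 FPKM in fhy1-1. GUN4, which activates the chelatase, stood at 102.5 and 29.2 FPKM in the GFP-FHY1 line and fhy1-1. CHLH was thus 3.59-fold and GUN4 3.51-fold higher.

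The other chelatase subunits rose less, CHLI1 1.32-fold, CHLI2 1.40-fold and CHLD 1.13-fold. CHLM, the methyltransferase of the next step, rose 1.81-fold to 107.2 FPKM in the GFP-FHY1 line. CRD1, a subunit of the cyclase that forms protochlorophyllide, stood at 291.9 FPKM in the GFP-FHY1 line and 126.7 FPKM in fhy1-1, 2.30-fold higher. YCF54, a further cyclase protein, was at 119.7 FPKM in the GFP-FHY1 line and 120.1 FPKM in fhy1-1 and was not called (q = 0.974 in the authors' deposited table). DVR, the divinyl reductase, rose 1.20-fold. The loci of CRD1 and CHLI2 overlap other genes in the table, and their reads cannot be told apart from those of the overlapping gene where strand is unknown. Of 6 genes that act after POR, 3 were called higher (CAO, CHLP and NYC1), 1 lower (HCAR) and 2 were not called (CHLG and NOL). CHLG, chlorophyll synthase, was at 40.3 FPKM in the GFP-FHY1 line and 40.9 FPKM in fhy1-1 and was not called (q = 0.863 in the authors' deposited table). CHLP, the geranylgeranyl reductase that supplies the phytol tail, stood at 405.5 and 270.2 FPKM, and CAO, which makes chlorophyll b, at 41.0 and 16.2 FPKM, in the GFP-FHY1 line and fhy1-1. Of the enzymes chosen as next to the POR step, CHLH, CHLM, CRD1, DVR, CAO and CHLP were called higher and CHLG was not called. YCF54, outside that choice, was not called either, while PORA and PORB were called lower.

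The 4 enzymes called lower were GSA1 (log2 fold change -0.22), which makes aminolevulinic acid, HEMB2 (-0.43), annotated as an aminolevulinic acid dehydratase form, UPM1 (-0.66) of the sirohaem branch, and HCAR (-0.57), which turns chlorophyll b back towards chlorophyll a. None of these 4 fell as far as PORA or PORB on the log2 scale. Of the branches away from chlorophyll, FC2, a ferrochelatase, was the only gene called higher and rose 1.59-fold. NYC1, a chlorophyll b reductase counted among the genes after POR, rose 1.60-fold. The haem oxygenase genes HO1, HO2, HO3 and HO4 were not called.

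**Figure D3:**
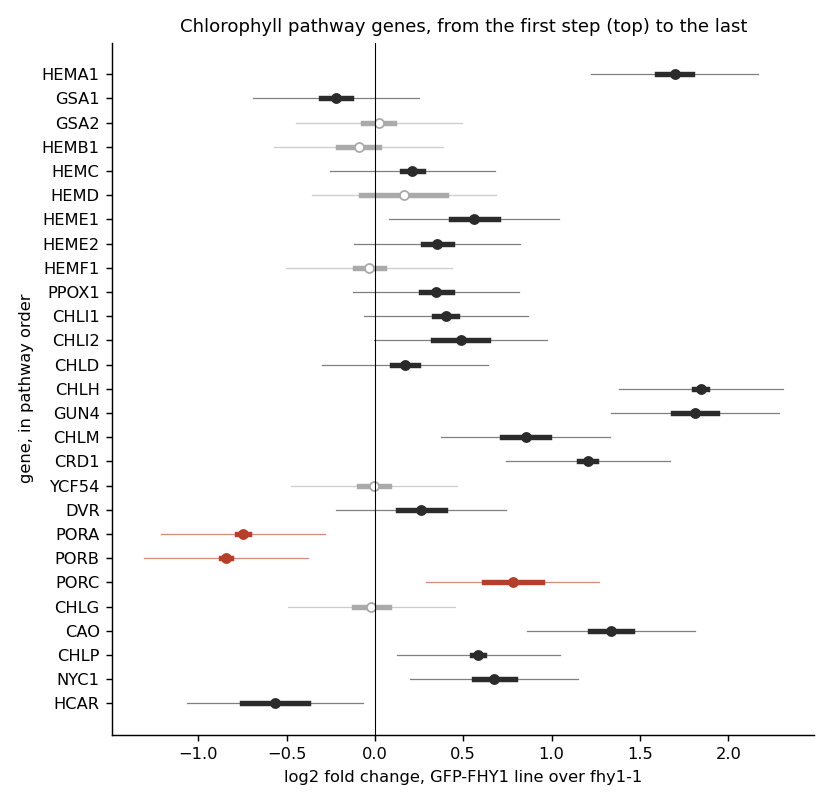
Points give the log2 fold change, GFP-FHY1 line over fhy1-1 (horizontal axis), of chosen chlorophyll pathway genes in pathway order. Filled points mark called genes, and the POR genes are in red. HEMA2, HEMA3, HEMB2, HEMF2, PPOX2, NOL and the haem, bilin and sirohaem branches are not drawn. Of the genes left out, HEMB2 and UPM1 were called lower and FC2 higher. Thick lines are 95% intervals from the implied error and thin lines add a replicate spread of 20%. PORA and PORB lie left of 0. YCF54 (-0.004) and DVR (0.26) are drawn just above them, and PORC (0.78) and CHLG (-0.02) just below. Beyond these lie CRD1 at 1.20 and CAO at 1.34.

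Set against the POR sum, each pathway transcript chosen for this comparison made up a larger part in the GFP-FHY1 line. The POR sum was itself 1.69-fold lower in that line, so an unchanged transcript would also make up a larger part. These ratios thus restate the changes given above and are no separate result. YCF54 was not among the transcripts chosen. CHLH was at 28.4% of the summed POR FPKM in the GFP-FHY1 line and 4.68% in fhy1-1, a 6.05-fold difference (log2 2.60, interval 2.55 to 2.64). GUN4 was at 13.5% and 2.29%, HEMA1 at 8.45% and 1.55%, and CRD1 at 38.5% and 9.92%, in the GFP-FHY1 line and fhy1-1. CHLP reached 53.5% of the POR sum in the GFP-FHY1 line, against 21.2% in fhy1-1. For CHLG, which was not called itself, the ratio was 5.32% in the GFP-FHY1 line and 3.201% in fhy1-1, a 1.66-fold difference. These ratios are within a genotype and do not depend on the scaling between genotypes.

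**Figure D4:**
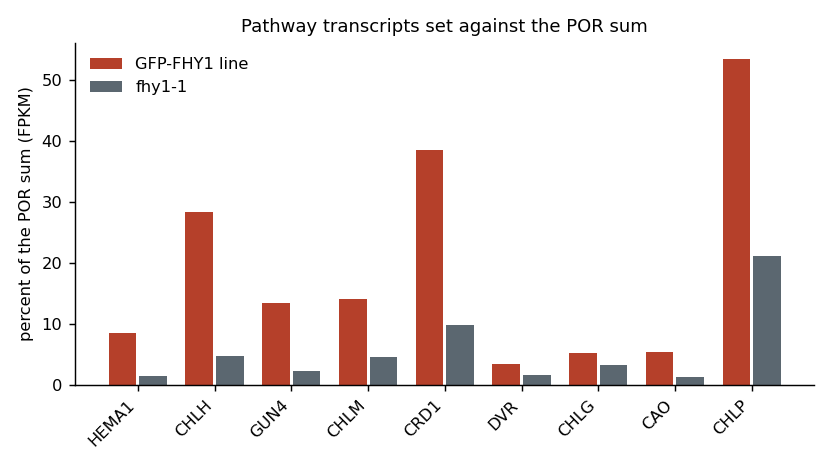
Bars give the FPKM of 9 pathway genes as a percent of the summed FPKM of PORA, PORB and PORC (vertical axis) in the GFP-FHY1 line and in fhy1-1, with no error bars. All 9 are higher in the GFP-FHY1 line. As a ratio between genotypes the difference was smallest for CHLG (5.32% and 3.201%, 1.66-fold) and largest for CHLH (28.4% and 4.68%, 6.05-fold). An unchanged transcript would also be higher there, since the POR sum is lower.

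Among 11 genes for proteins that bind or control POR, glutamyl-tRNA reductase or protochlorophyllide, the authors' deposited table called 4 higher and 2 lower, against 9.92% higher and 12.9% lower of all tested genes. Their median log2 fold change was -0.01, against -0.05 over all tested genes. OEP16-1, an outer envelope channel proposed as an import site of the PORA precursor, stood at 45.3 FPKM in the GFP-FHY1 line and 70.3 FPKM in fhy1-1, 1.55-fold lower. LIL3.2, a light-harvesting-like protein known to bind and stabilise POR and geranylgeranyl reductase, stood at 253.8 and 330.6 FPKM, 1.30-fold lower in the GFP-FHY1 line. BCM1, a thylakoid protein that stabilises chlorophyll synthesis enzymes, rose 2.62-fold to 32.8 FPKM. TIC55 rose 1.32-fold, GBP, which binds glutamyl-tRNA reductase, 1.23-fold, and GUN1, a plastid signalling protein, 1.10-fold, and the loci of TIC55 and GBP overlap other genes. CPP1, a chaperone-like protein that stabilises POR, was at 77.1 FPKM in the GFP-FHY1 line and 82.3 FPKM in fhy1-1 and was not called. FLU, which holds back protochlorophyllide synthesis in the dark, was at 53.4 and 53.9 FPKM and was not called either.

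Among transcription and light-signalling genes that act on POR genes or on greening, the authors' deposited table called 12 of 27 higher and 1 lower (median log2 fold change 0.12), against 9.92% higher, 12.9% lower and a median of -0.05 over all tested genes. CGA1 and GNC, GATA factors that promote greening, stood at 7.41 and 21.1 FPKM in the GFP-FHY1 line and at 1.46 and 13.7 FPKM in fhy1-1. RVE1, a MYB-like factor known to bind the PORA promoter, rose 2.15-fold to 10.5 FPKM, while its relative RVE2 was at 70.1 FPKM in the GFP-FHY1 line and 68.6 FPKM in fhy1-1 and was not called. EIN3 and EIL1, ethylene factors known to bind the PORA and PORB promoters, were not called, at 68.6 and 42.1 FPKM in the GFP-FHY1 line and 66.9 and 39.6 FPKM in fhy1-1. PIF1, a phytochrome-interacting factor known to bind the PORC promoter, rose 1.23-fold to 16.4 FPKM, and its locus overlaps another gene.

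PIF4 rose 1.96-fold, PIF5 1.84-fold and PIF8 1.69-fold, whereas PIF3 was at 30.3 FPKM in the GFP-FHY1 line and 32.2 FPKM in fhy1-1 and was not called. HY5 and HYH, bZIP activators of light responses, rose 1.88-fold and 2.86-fold, HFR1 1.57-fold and COP1, a ubiquitin ligase that represses light responses, 1.46-fold. GLK2, which activates chlorophyll and antenna genes, rose 1.83-fold to 49.1 FPKM. GLK1 was at 8.14 FPKM in the GFP-FHY1 line and 8.11 FPKM in fhy1-1. SCL27, a GRAS factor known to act on PORC, was at 17.2 and 16.2 FPKM in the GFP-FHY1 line and fhy1-1 and was not called. The gene called lower was PHYA, phytochrome A itself, at 148.7 FPKM in the GFP-FHY1 line and 154.4 FPKM in fhy1-1. Its log2 fold change of -0.05 was -0.005 with centring on the median and turned to 0.15 with the assumed shift for AT2G01021.

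**Figure D5:**
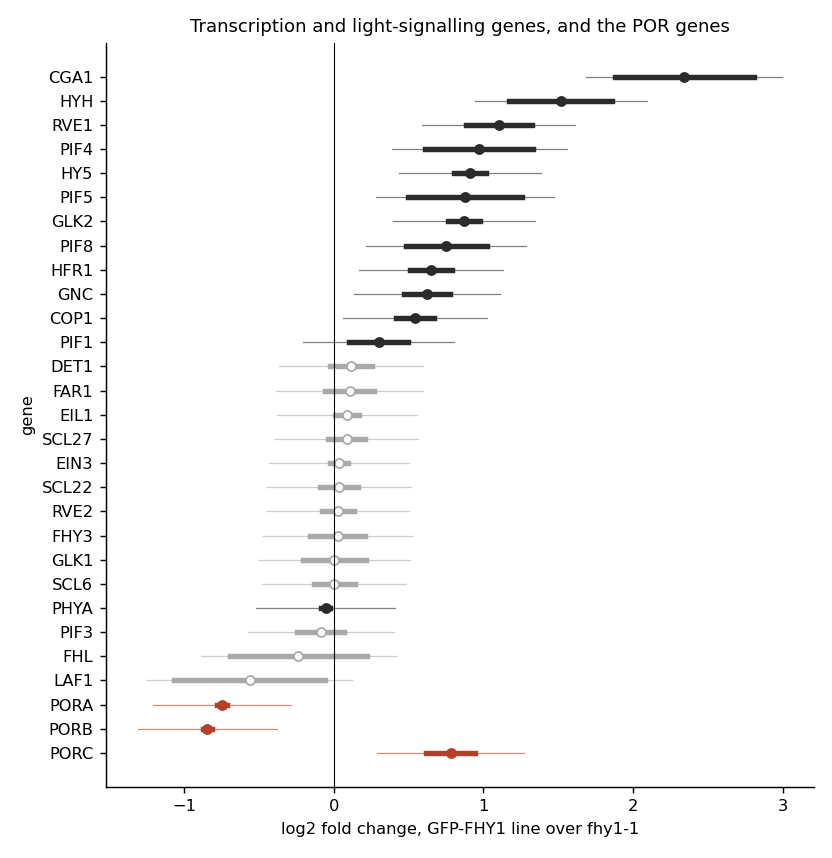
Points give the log2 fold change, GFP-FHY1 line over fhy1-1 (horizontal axis), of the transcription and light-signalling genes with a mean of at least 1 FPKM, sorted by value, with the POR genes in red below them. Filled points were called, thick lines are 95% intervals from the implied error and thin lines add a replicate spread of 20%. CGA1 lies highest at 2.34, and LAF1, which was not called, lies lowest of the regulators at -0.56.

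The label check and the organ markers were as follows. FHY1 (AT2G37678) stood at 195.9 FPKM in the GFP-FHY1 line and 19.0 FPKM in fhy1-1, a level that counts mutant and transgene transcripts together. All 4 Rubisco small subunit genes, listed as markers of green cotyledons, were called higher (log2 fold changes 0.25 to 1.13). The seedlings had only 3 h of far-red after D, and whether these genes mark an organ in them was not tested. Of 4 root markers, 3 were called lower and none higher (-0.57 to -0.10). Of these, PYK10 was at -0.05 with centring on the median and turned to 0.10 with the assumed shift for AT2G01021. All 4 seed reserve markers were called lower (-2.42 to -0.91), with a summed level of 21.6 FPKM in the GFP-FHY1 line and 81.0 FPKM in fhy1-1. No marker of any of these lists was at 0. The part of these organ markers in the changes of the POR genes was not tested, and in whole seedlings fewer cells of a type and less RNA per cell cannot be told apart.

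The tested genes closest to each POR gene in level over the 2 genotypes were found by the Euclidean distance of their log2 FPKM. With only 2 values per gene, this describes levels and no more. XTH19, a xyloglucan-modifying enzyme, was closest to PORA (distance 0.16) at 453.7 FPKM in the GFP-FHY1 line and 672.8 FPKM in fhy1-1, followed by LCR69 (0.22). PCK1, phosphoenolpyruvate carboxykinase, was closest to PORB (0.17) at 310.9 and 515.2 FPKM, followed by AT4G30170 (0.27), annotated as a peroxidase. AT5G27390 (0.03) and AT4G34730 (0.05) were closest to PORC.

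Along the chromosome, no POR locus overlapped another gene of the table. AT4G27450, which lies 130 bases beyond PORB on the opposite strand, stood at 122.5 FPKM in the GFP-FHY1 line and 165.3 FPKM in fhy1-1 and was called lower (log2 fold change -0.43). AT4G27435, on the other side of PORB, was at 9.63 and 9.50 FPKM and was not called. Next to PORA, AT5G54200 was called lower (-0.23) and PTAC15 was not called. Neither of the genes next to PORC, AT1G03620 and AT1G03640, was called. These neighbours were chosen by position.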

How the data were processed

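RNA was measured in 6 libraries of whole seedlings, 3 per genotype. Bowtie and TAIR10 are named in the submitters' processing notes, and the header is laid out as Cuffdiff writes its gene tables. For versions, strand handling, filters and read length, nothing is given in the sources used here. The authors' deposited values are read as FPKM from that layout, since the header names no unit, with 1 value per genotype and the replicates combined. The statistic in the authors' deposited table is a score whose sign was opposite to the fold change in all 23355 genes compared. The authors' deposited p-value equalled its two-sided normal tail to within 2.75e-06, and the deposited q-value a Benjamini-Hochberg adjustment over 23937 tested genes to within 1.82e-06. The deposited column of log2 fold changes has a placeholder for 1730 genes, so fold changes were recomputed as GFP-FHY1 over fhy1-1. They matched the column to within 1.46e-05 in the tested genes with both values above 0.

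A gene was called at q below 0.05. The error of a log2 fold change was taken as its size divided by the score, and 95% intervals are 1.96 such errors each way. They hold no spread between libraries beyond what the authors' test used. Differences between members were given with intervals and no p. Retests used the normal tail with Benjamini-Hochberg adjustment and were tested on simulated data. Alternatives were q below 0.01, Bonferroni adjustment, a 2-fold change, a log2 change of at least 0.58 after a pseudocount of 1, a minimum of 1 FPKM, centring on the median, leaving out the gene with the largest FPKM, and an added spread between the 3 libraries of a genotype of 10% or 20% (coefficient of variation). Leaving out the gene with the largest FPKM was a fixed shift computed from its FPKM shares. It takes the FPKM sums of both genotypes as scaled to an equal total, although the deposited sums were unequal. The depth of each library is unknown, since FPKM does not keep it, and no interval for counting error could be made.

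The members, gene lists, motifs and alternatives were chosen with earlier results of these data known. The named genes are the members, FHY1, the enzymes next to POR, called list members by fold at a mean of at least 1 FPKM, and the 2 genes nearest in level to each member. Uncalled regulators, partners and enzymes, and neighbours on the chromosome, were named outside that rule, after their values were seen. Of the table's identifiers, 97.8% were in RefSeq TAIR10.1, which gave symbols and sequences (Biopython 1.88, Python 3.11.15, pandas 2.3.3, scipy 1.17.1). Table coordinates are TAIR10, written from 1. The promoter window of 186 bases is the gap, in the RefSeq annotation, between PORB and the end of the gene before it, which lies closer there than in the authors' table (408 bases). Proteins were not used here.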

Additional observations from a re-analysis of the deposited data

How the results depend on the processing

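PORA, PORB and PORC kept their direction under each alternative run. Most alternatives change only the threshold, the genes tested or the error, so direction was fixed in advance there. The values themselves moved with the pseudocount (-0.745, -0.84 and 0.75), centring (-0.70, -0.79 and 0.83) and the assumed shift for AT2G01021 (-0.54, -0.64 and 0.99). Requiring a 2-fold change ended all 3 calls (log2 fold changes -0.75, -0.84 and 0.78), and a replicate spread of 20% ended those of PORA (-0.75) and PORC (0.78) but not that of PORB. The difference between PORA and PORB (0.10) no longer excluded 0 with a spread of 10% or 20%, and the differences of PORC from both did under each. Weighted by transcript length, PORA, PORB and PORC made up 52.6%, 43.2% and 4.17% of the sum in the GFP-FHY1 line and 52.5%, 46.1% and 1.44% in fhy1-1.

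Counts of called genes moved more. Pathway enzymes, 17 higher and 4 lower, became 5 and 0 with a 2-fold change, 9 and 1 with the pseudocount, 26 and 2 without AT2G01021, and 6 and 0 with a spread of 20%; with a spread of 10% the lower count was 2. POR-related proteins, 4 higher and 2 lower, became 1 and 0 with a 2-fold change, 1 and 1 with the pseudocount, and 1 and 0 with a spread of 20%. Their higher count was 2 with Bonferroni adjustment, 7 without AT2G01021 and 1 with a spread of 10%. Transcription genes, 12 higher and 1 lower, became 3 and 0 with a 2-fold change, 22 and 0 without AT2G01021, and 6 and 0 with a spread of 20%. Their lower count was also 0 with Bonferroni adjustment, the pseudocount, centring and a spread of 10%. Stricter thresholds and wider errors lower such counts by construction, and the upward shift for AT2G01021 moves calls from lower to higher by construction. Counts without AT2G01021 rest on that assumed shift, whose condition of equal FPKM sums the deposited values do not meet. Among all tested genes, calls were 2375 higher and 3089 lower, and 6243 and 769 without AT2G01021, 2895 and 2218 with centring, 508 and 114 with a 2-fold change, 837 and 255 with the pseudocount, 1268 and 1258 with Bonferroni adjustment, 1198 and 610 with a spread of 10%, and 580 and 93 when it was 20%. No paired analysis was possible because the libraries of a genotype are combined in the table, which also kept any replicate from being left out.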

Other observations

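Genes of the chlorophyll and haem pathway list, and of the list of POR-related proteins, whose symbols differ only in the last digit were compared pair by pair. This rule was set after their values were seen, and it gave 16 pairs of enzymes and 2 of other proteins, some sharing a gene. The interval from the implied error excluded 0 for 9 of the 18 pairs, and with a replicate spread of 20% it did for 3. HEMA1 exceeded HEMA2 by 1.76 on the log2 scale (95% interval 1.53 to 1.99), and HEMA2 stood at 6.39 FPKM in the GFP-FHY1 line and 6.68 FPKM in fhy1-1. HEMA1 also exceeded HEMA3 (2.08, interval 0.82 to 3.34), which was at 0.212 FPKM in the GFP-FHY1 line and 0.275 FPKM in fhy1-1. Of the proteins that are not enzymes, BCM1 exceeded BCM2 by 1.29 (1.10 to 1.48). These 3 pairs were the ones that held with the 20% spread. FC2 exceeded FC1 by 0.68 (0.50 to 0.86), whereas for HEMF1 and HEMF2 (difference 0.16), CHLI2 and CHLI1 (0.08) and all 6 pairs of haem oxygenase genes the interval held 0. Of the 18 pairs, 0 had members called in opposite directions. Only HEME1 with HEME2 and CHLI2 with CHLI1 had both members called, so no other pair could show opposite calls. These pairs therefore give no measure of how unusual the opposite calls of PORC and of PORA and PORB are. The loci of BCM2, FC1, CHLI2 and PPOX1 overlap other genes.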
